A study of Homo sapiens with 6 samples.

Results

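The transcriptome described here is that of PANC-1 cells given vehicle only. PANC-1 is an established human line from a pancreatic ductal carcinoma, labelled as pancreatic cancer cells of genotype WT. The cells received less than 0.1% DMSO, the solvent of the compound tested elsewhere in the study, for 24 h. Libraries were chosen by their titles and column headings alone, which gave the 3 control libraries of 6 in all. The study set these controls against cells given Schisandrin B, a lignan of Schisandra fruit, and asked about ferroptosis. Those 3 treated libraries are not analysed here, and no comparison between groups is made. PANC-1 is 1 line, and the labels do not call the replicates separate cultures, so the spread between libraries may be technical.

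Ductal carcinoma of the pancreas arises in an exocrine gland whose acinar cells secrete digestive enzymes and whose duct cells carry the juice to the gut. Its tumours often lose the suppressors CDKN2A and SMAD4, and they range from a classical, epithelial state to basal-like and mesenchymal-like states. PANC-1 is known for loss of CDKN2A and a partly mesenchymal appearance in culture.

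The libraries held 13656826, 14577016 and 18289410 gene counts, so that 1 CPM stood for 13.7 counts in the smallest and 18.3 in the largest. CPM is a gene's count over its library total, scaled to a common size, and FPKM is the authors' value, which also divides by gene length. For some genes FPKM did not keep a fixed ratio to CPM across libraries, so it is not CPM merely rescaled. Apart from the ranking by CPM and the level of 1 CPM, levels of different genes are set beside each other in FPKM. Between libraries, Pearson's r of log2(CPM + 1) was 0.991 to 0.992 across 14112 genes, and genes are no independent replicates. The mean chi-square per gene was 3.87 to 4.46 for the pairs of libraries, beyond counting noise. The median was 0.889 to 0.999, so genes with large differences weigh heavily in the mean, though counting noise alone also gives a lower median. The common biological coefficient of variation in edgeR was 7.72%. Values with ± are means and SD over the 3 libraries. A gene counts as expressed at a mean of 1 CPM or more, and a gene without a single count could still lie at up to 0.0645 CPM, the level of 3 counts over the 3 libraries. These limits cover counting error only.

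PANC-1 cells expressed 14112 of the 63241 genes in the table, or 22.3%, while 34234 (54.1%) had no count in any library. Protein-coding genes made up most of this, with 11871 of 20073 expressed (59.1%) and 4800 (23.9%) without a count. They took 96.8 ± 0.0709% of all counts. Long non-coding RNA genes were nearly as many, 19370, but 1665 of them were expressed (8.60%), and they took 1.69 ± 0.0313% of counts. Processed pseudogenes, copies of spliced transcripts, held 0.650 ± 0.00411% of counts, with 354 of 10145 expressed; because such copies resemble their parent genes, their counts are uncertain. The 37 genes of the mitochondrial genome held 4.50%, 4.04% and 3.96% of counts in the 3 libraries, and the share was highest in the first. Genes for cytosolic ribosomal proteins held 5.85%, 6.07% and 6.00%. Of 1879 microRNA precursor genes, 4 were expressed, in libraries whose kit is for mRNA.

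The most abundant transcript was that of EEF1A1, the factor that delivers aminoacyl-tRNA to the ribosome, at 14418, 14459 and 14492 CPM in the 3 libraries. On the scale of CPM, VIM, the intermediate filament vimentin of mesenchymal cells, came next at 10472, 10759 and 10689 CPM. These libraries did not overlap those of the genes ranked beside them. The mitochondrial cytochrome oxidase subunit MT-CO1 followed at 8733, 7800.3 and 7657 CPM, and its range overlapped that of cytoplasmic actin ACTB at 7772, 8293 and 8066 CPM. Elongation factor EEF2 stood below both, at 6106, 6300.3 and 6157 CPM. The rest of the top 20 held the mitochondrial transcripts MT-RNR2, MT-CO3, MT-ND4, MT-CO2 and MT-ATP6, the glycolytic enzymes GAPDH and ENO1, the ferritin chains FTH1 and FTL that store iron, the actin-binding TMSB4X, the ribosomal RACK1, RPLP0 and RPL3, the second cytoplasmic actin ACTG1, and SCD. SCD, the desaturase that makes monounsaturated fatty acids, was at 3201, 3209.9 and 3178 CPM. Of the 20 neighbouring pairs in this order, 9 had ranges over the 3 libraries that did not meet. The ranges of the others overlapped, although some kept their order within each library, such as FTH1 above FTL.

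Dividing by length changed the order. Per length, EEF1A1 at 5764, 5865 and 5943 FPKM overlapped MT-CO2 at 6209, 5642 and 5589 FPKM and MT-CO3 at 6196, 5637 and 5549 FPKM. TMSB4X, whose transcript is short, stood at 5497, 5364 and 5717 FPKM, and VIM moved to the sixth place at 4836, 4965 and 4975 FPKM. The ferritin light chain FTL was at 4163, 4443 and 4318 FPKM and the heavy chain FTH1 at 3794, 4205 and 3974 FPKM, so that both iron-storage genes were among the 10 highest. SCD, 14th by CPM, was 99th by FPKM at 528, 527 and 527 FPKM. MT-ATP8, TMSB10 and MT-ND4L were in the top 20 by FPKM only. Of the 100 highest genes on each scale, 61 were shared, and ribosomal protein genes numbered 23 by CPM and 42 by FPKM. The median transcript length implied by CPM over FPKM was 2.10 kb in the top 100 by CPM, 1.11 kb in the top 100 by FPKM and 3.27 kb in all expressed genes. Of the 20 neighbouring pairs at the top, 4 had ranges over the libraries that did not meet on the FPKM scale. Some of the others kept their order within each library, such as MT-CO2 above MT-CO3.

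A small set of genes carried much of the RNA. The 10 highest genes by CPM held 7.19 ± 0.135% of counts, the 100 highest 21.2 ± 0.156% and the 1000 highest 51.9 ± 0.171%, and 900 genes held 50% of all counts. In summed FPKM the same ranks held 11.5%, 34.7% and 65.1%. The membership was stable, with 97 of the 100 highest genes among the 100 highest of every library.

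**Figure D1:**
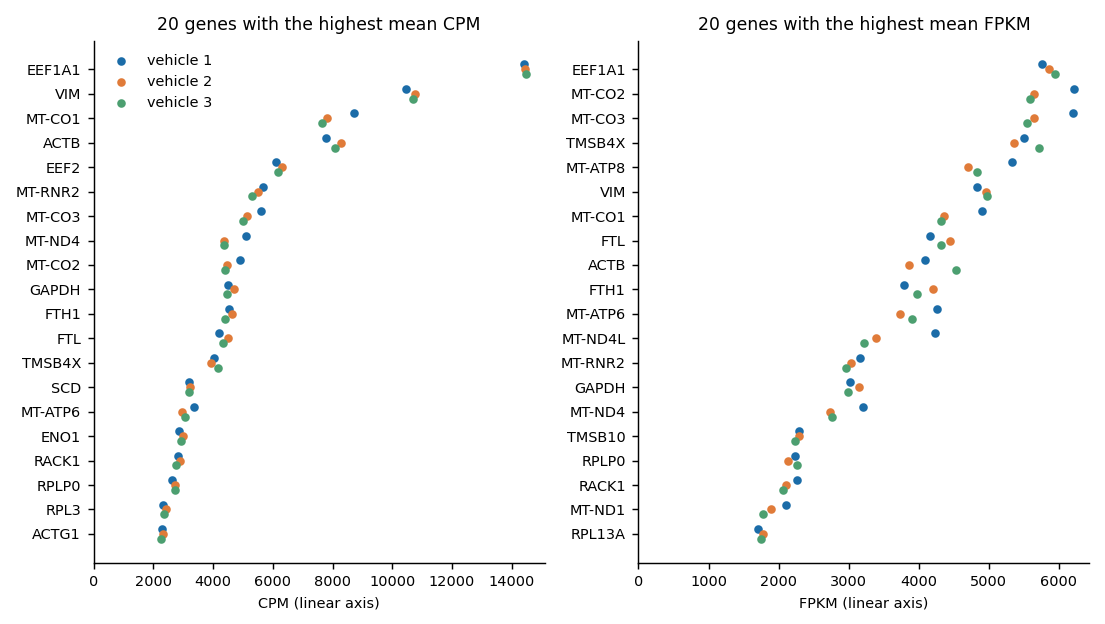
The 20 genes with the highest mean CPM (left) and mean FPKM (right), with 1 point per vehicle library on linear axes. EEF1A1 stood apart from VIM in CPM but overlapped MT-CO2 and MT-CO3 in FPKM, and the first library was the highest for MT-CO1, MT-CO2 and MT-CO3 on both scales.

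The promoters of EEF1A1 and FTL are shown as those of a pair of nuclear genes among the 20 most abundant. Each sequence runs from 250 bases before to 50 bases after a RefSeq start on GRCh38.p14, with CG pairs in capitals. The EEF1A1 window is chr6:73520983-73521282 on the minus strand and the FTL window is chr19:48965059-48965358 on the plus strand.
EEF1A1: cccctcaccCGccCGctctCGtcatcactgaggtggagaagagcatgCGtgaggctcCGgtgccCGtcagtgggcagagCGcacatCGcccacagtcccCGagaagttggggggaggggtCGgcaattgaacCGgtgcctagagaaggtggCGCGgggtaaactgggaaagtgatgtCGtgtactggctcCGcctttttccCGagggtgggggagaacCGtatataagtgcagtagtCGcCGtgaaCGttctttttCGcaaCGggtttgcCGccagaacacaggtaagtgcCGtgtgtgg
FTL: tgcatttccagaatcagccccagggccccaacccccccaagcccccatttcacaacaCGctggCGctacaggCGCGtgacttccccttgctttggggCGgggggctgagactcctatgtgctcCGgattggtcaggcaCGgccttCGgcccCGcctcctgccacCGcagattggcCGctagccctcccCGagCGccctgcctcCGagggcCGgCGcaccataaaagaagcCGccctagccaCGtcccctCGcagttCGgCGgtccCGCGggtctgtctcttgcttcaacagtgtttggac
EEF1A1 had 24 CG pairs, 0.891 times the number its base composition would give, and FTL had 23 CG pairs, 0.722 times. At a limit of 0.6 on that ratio, 90.6% of the 9747 expressed protein-coding genes with a promoter in the table were rich in CG, as were all 63 ribosomal protein genes that had one. Among all protein-coding genes with a promoter, the expressed ones included, the share was 70.9% (11031 of 15563), and among all 35116 promoters of the table it was 48.9%. Promoters were found for 82.1% of expressed protein-coding genes and 80.8% of ribosomal protein genes. The comparison is void for protein-coding genes as a whole, of which 77.5% had a promoter, for genes without counts, of which 72.3% had one, and for the 100 most abundant genes, of which 72.2% had one. The letters TATAAA, searched on both strands, occurred in 7.65% of expressed promoters, 12.4% of those of all protein-coding genes and 11.5% of all promoters. For these letters too, the comparison with protein-coding genes as a whole is void. Promoters and motifs were chosen after values were seen.

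Among long non-coding RNAs the highest count was that of LINC02154, an intergenic RNA gene of chromosome X, at 1207, 1242 and 1219 CPM. It was also high per length, at 701, 717 and 725 FPKM. NEAT1, the scaffold of nuclear paraspeckles, reached 664, 568 and 587 CPM but 44.3, 40.6 and 34.6 FPKM, with an implied length of 15.2 kb. MALAT1, a nuclear speckle RNA, was at 15.5, 15 and 14.6 FPKM, and NORAD, which binds Pumilio proteins, at 40.1, 38.1 and 40.8 FPKM. The snoRNA host genes SNHG29 and SNHG5 stood well above these per length, at 361 ± 8.86 FPKM and 138 ± 4.05 FPKM. PAX8-AS1, the antisense partner of the thyroid and kidney factor PAX8, was at 24.4 ± 2.73 FPKM beside 19.9 ± 2.21 FPKM for PAX8 itself. The sources used here give no strand setting for the counting, so reads of the pair cannot be told apart. GTF2IP1 and GTF2IP4, near-identical relatives of GTF2I, were at 52 ± 2.32 FPKM and 49.5 ± 0.207 FPKM, and counts of such copies are uncertain. ENSG00000287158 on chromosome 3, which the table gives without a symbol, was at 51.9 ± 1.62 FPKM.

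Of the 5 keratins of simple epithelia, PANC-1 expressed KRT8, KRT18 and KRT19, or 3 of 5 (60%), close to the 59.1% of all protein-coding genes, and the list median was 66.2 FPKM, beside 1.73 FPKM over all protein-coding genes. KRT8 was at 329, 358 and 347 FPKM, and its pairing partner KRT18 was at 286, 324 and 300.2 FPKM. The FPKM ratio of KRT8 to KRT18 was 1.11 to 1.16 in the 3 libraries. The annotated spans of KRT8 (chr12:52897187-52949954) and KRT18 (chr12:52948871-52952906) overlap at their ends, where reads could belong to either gene. KRT19, a keratin of duct cells, was at 61, 69.8 and 67.6 FPKM. KRT7, the other keratin usual in ducts, had 0, 0 and 8 counts, and the intestinal KRT20 had none. Over the whole keratin family, counted after values were seen, 6 of 55 genes were expressed and 38 had no count.

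Of 20 epithelial junction genes, 5 were expressed (25%), against 59.1% of all protein-coding genes. Claudin CLDN4, a tight junction protein, was the highest at 81.5, 79 and 73.3 FPKM. The desmosomal plakophilin PKP3 followed at 34, 32.7 and 32.9 FPKM. The other members past 1 CPM were occludin OCLN at 7.10 ± 1.22 FPKM, desmoplakin DSP at 5.05 ± 0.154 FPKM and the tight junction scaffold TJP3 at 0.753 ± 0.135 FPKM. Several other members of the list were near 0. E-cadherin CDH1 had 4, 1 and 2 counts, and the adhesion molecule EPCAM had 8, 0 and 6 counts. No count was seen for the epithelial splicing regulator ESRP1, the transcription factors GRHL2 and OVOL2, or the vesicle GTPase RAB25. The median of the list was 0.0806 FPKM, beside 1.73 FPKM over all protein-coding genes.

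Genes of the mesenchymal state were expressed in 12 of 20 cases (60%), close to the share of all protein-coding genes, but their levels spread very widely. VIM at 4925 ± 77.3 FPKM was followed by S100A4, a calcium-binding protein of motile cells, at 847, 874 and 890.3 FPKM. LOXL2, an enzyme that crosslinks collagen, was at 114, 117 and 109.6 FPKM. TGFBI, CALD1 and the receptor AXL were between 23.8 and 47.8 FPKM on average. Among the transcription factors that repress CDH1, ZEB1 was at 4.23, 4.96 and 4.47 FPKM and SNAI1 at 2.32, 1.95 and 2.52 FPKM, whereas SNAI2 had 0, 3 and 0 counts and TWIST1 had none. N-cadherin CDH2, the usual counterpart of E-cadherin, had 1, 0 and 1 counts, and SPARC had 1, 3 and 4 counts. Fibronectin FN1 was low at 0.972, 0.473 and 0.796 FPKM. Neither E-cadherin nor N-cadherin was at an expressed level, while vimentin ranked second of all genes by CPM.

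**Figure D2:**
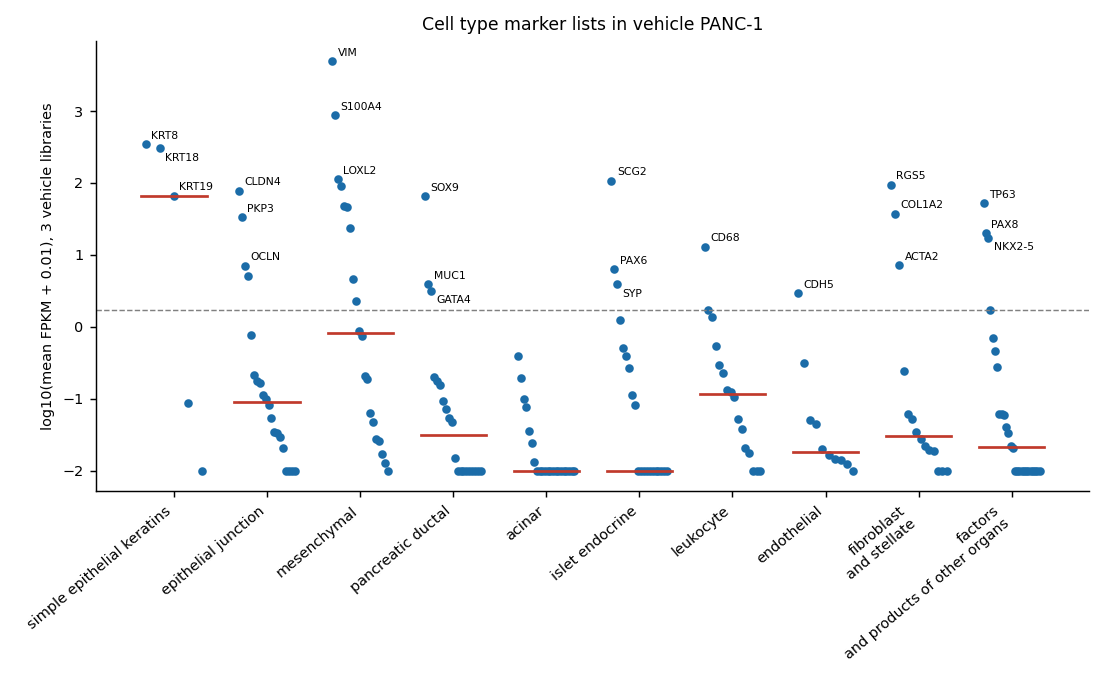
Mean FPKM over the 3 vehicle libraries of the members of 10 marker lists, on a log10 scale with 0.01 added; each point is 1 gene, red bars are list medians and the dashed line is the median of protein-coding genes, 1.73 FPKM. KRT8, KRT18 and KRT19 lie above the dashed line while KRT7 and KRT20 lie below it, mesenchymal genes span the whole range from VIM down to 0, and most acinar and islet genes lie at the floor of the plot.

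Beside the label of pancreatic cancer, few genes of the normal pancreas were expressed. Of 20 ductal genes 4 were expressed (20%), against 59.1% of all protein-coding genes, and 9 had no count. SOX9, the transcription factor of duct and progenitor cells, was high at 65.9, 62.8 and 66.6 FPKM. The surface mucin MUC1 was at 3.22, 4.46 and 4.00 FPKM and the factor GATA4 at 2.84, 3.81 and 2.90 FPKM, with ONECUT2 lower at 0.192 ± 0.0569 FPKM. PDX1, needed for pancreas formation, had 4, 3 and 6 counts, FOXA2 had 5, 2 and 2 counts and GATA6 had 0, 3 and 6 counts. HNF4A, the chloride channel CFTR, carbonic anhydrase CA2 and the secretin receptor SCTR were at 0 in every library. In bulk RNA, fewer cells with a transcript and less of it per cell cannot be told apart.

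Acinar genes were almost silent, with 4.55% of the list expressed beside 59.1% of all protein-coding genes. CEL, the bile salt-dependent lipase, was the 1 gene of 22 at 1 CPM or more, with 16, 13 and 22 counts and a mean of 0.379 ± 0.0626 FPKM. The trypsinogen genes PRSS1 and PRSS2, the carboxypeptidases CPA1 and CPB1, the elastases CELA2A, CELA3A and CELA3B, the lipase PNLIP and the acinar factor PTF1A were at 0. The islet list held 6 expressed genes of 20 (30%), also below that 59.1%, and none of them was a hormone. Secretogranin SCG2, a protein of secretory granules, was at 109.5, 109.7 and 104 FPKM. The eye and islet factor PAX6 was at 6.05, 6.69 and 6.36 FPKM, and the synaptic vesicle protein SYP at 3.70, 3.70 and 4.41 FPKM. Insulin INS, glucagon GCG, somatostatin SST, pancreatic polypeptide PPY, amylin IAPP and chromogranin CHGA had no count. The beta cell factor MAFA was at 1.25 ± 0.0708 FPKM.

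The promoters of a pair of pancreatic genes without counts, trypsinogen and insulin, can be read beside those of EEF1A1 and FTL. They span the same distances on GRCh38.p14, at chr7:142749222-142749521 on the plus strand for PRSS1 and chr11:2161160-2161459 on the minus strand for INS, with CG pairs again in capitals.
PRSS1: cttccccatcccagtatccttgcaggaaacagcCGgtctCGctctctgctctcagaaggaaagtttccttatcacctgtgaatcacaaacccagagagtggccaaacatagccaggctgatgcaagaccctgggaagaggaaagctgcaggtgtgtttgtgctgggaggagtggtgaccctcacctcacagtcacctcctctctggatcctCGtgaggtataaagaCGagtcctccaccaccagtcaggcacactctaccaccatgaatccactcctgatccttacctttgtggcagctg
INS: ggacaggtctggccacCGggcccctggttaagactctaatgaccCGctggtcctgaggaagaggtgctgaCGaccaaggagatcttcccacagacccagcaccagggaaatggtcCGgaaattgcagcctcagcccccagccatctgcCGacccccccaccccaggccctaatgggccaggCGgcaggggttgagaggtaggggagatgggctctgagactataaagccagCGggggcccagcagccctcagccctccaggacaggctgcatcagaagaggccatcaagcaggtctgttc
PRSS1 had 4 CG pairs, 0.189 times the number given by its composition, and INS had 7 CG pairs, 0.235 times. Both windows hold the exact letters TATAAA, which neither the EEF1A1 nor the FTL window does. Near matches, such as TATATAAG in the EEF1A1 window and CATAAA in the FTL window, were not counted. These 4 genes were picked after values were seen and stand for no class.

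Markers of other cells of a tumour were mostly below 1 CPM, with exceptions, whereas 59.1% of all protein-coding genes reached it. Of 16 leukocyte and blood genes 4 were expressed. CD68, a lysosomal protein of macrophages that other cells also make, was at 12.1, 13.5 and 13.4 FPKM. CD8A was at 1.53, 1.55 and 2.07 FPKM, while CD4 at 0.531 ± 0.168 FPKM and ITGAM at 0.221 ± 0.108 FPKM were lower. The pan-leukocyte PTPRC had 0, 0 and 3 counts, and CD3D and MS4A1 had none. The summed level of the list was 35.1 ± 2.32 CPM. Endothelial genes were 2 of 10, VE-cadherin CDH5 at 2.85, 2.84 and 3.09 FPKM and the sialomucin EMCN at 0.309 ± 0.0282 FPKM, whereas PECAM1 had 0, 2 and 0 counts. Of 14 fibroblast and stellate genes 4 were expressed. RGS5, a regulator of G-protein signals best known from pericytes, was at 97.8, 88.5 and 96.5 FPKM. The collagen chain COL1A2 was at 37.2, 38.7 and 36.7 FPKM, although its partner COL1A1 was at 0.166, 0.245 and 0.277 FPKM, and the smooth muscle actin ACTA2 was at 7.33, 6.88 and 7.40 FPKM. FAP and POSTN, of the same list, had no count, and DCN had 0, 2 and 2 counts. The endothelial list summed to 15 ± 0.219 CPM and the fibroblast list to 683 ± 15.1 CPM, most of the latter from RGS5 and COL1A2.

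Factors of other organs were expressed in 6 of 26 cases (23.1%), beside 59.1% of all protein-coding genes. TP63, the factor of squamous and basal epithelium, was at 50, 53.2 and 53.5 FPKM, although KRT5, the basal keratin, had 2, 0 and 1 counts. PAX8 was at 18.7, 22.5 and 18.6 FPKM, and its relative PAX2, a kidney factor, was at 1.62, 1.89 and 1.56 FPKM. The heart factor NKX2-5 was at 16.2, 18.2 and 17.8 FPKM. The intestinal CDX2 was at 0.686 ± 0.0897 FPKM and MITF, the melanocyte factor that other cells also use, at 0.455 ± 0.191 FPKM. No count was seen for 12 members, among them TTR, AFP, SOX2, MYOD1 and SFTPC.

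Set against subtype genes of pancreatic cancer, PANC-1 showed none of the classical list. All 23 classical genes were below 1 CPM and 17 had no count, including the trefoil factors TFF1, TFF2 and TFF3, CEACAM6, LGALS4 and TSPAN8. The member with the most counts, AGR2, had 6, 11 and 14 counts. Of 24 basal-like genes 7 were expressed (29.2%), beside 59.1% of all protein-coding genes. The long non-coding UCA1 was at 56.9, 62.7 and 63.6 FPKM, and the EGFR ligand AREG at 52.9, 52.4 and 53.4 FPKM. The glucose transporter SLC2A1 was at 21.4 ± 1.19 FPKM, the protease CTSV at 17.7 ± 1.55 FPKM, the keratin KRT15 at 11.1 ± 2.06 FPKM and S100A2 at 9.09 ± 0.818 FPKM. KRT17 and KRT6A, which also belong to that list, had 8 and 4 counts over the 3 libraries.

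Of 20 quasi-mesenchymal genes 14 were expressed (70%), with a median of 5.91 FPKM, beside 59.1% and 1.73 FPKM over all protein-coding genes. The cell cycle subunit CKS2 was the highest at 274, 262 and 279.7 FPKM, and caveolin CAV1 followed at 83.4, 89.2 and 85.9 FPKM. PHLDA1 was at 61.1, 60.5 and 63.6 FPKM, and the hyaluronan receptor HMMR at 37.9, 34.8 and 43.8 FPKM. AHNAK2, a very large gene, took 394, 401 and 369 CPM but 18.5 ± 0.407 FPKM. The list shares S100A2 with the basal-like list, and LOX and TWIST1, at 51 and 0 counts in all, with the mesenchymal list.

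Genes altered in pancreatic cancer were mostly expressed, 28 of 34 (82.4%), beside 59.1% of all protein-coding genes, and 6 were not. SMAD4, the shared mediator of TGF-beta signals, was at 8.43, 7.62 and 8.81 FPKM, and its partner SMAD3 at 20.3, 19.7 and 20.2 FPKM, apart in every library. MYC, a transcription factor of growth, was at 152, 149.9 and 166 FPKM, and GNAS, the stimulatory G-protein alpha subunit, was the highest at 304, 294 and 306 FPKM. Of the chromatin remodelling ATPases, SMARCA4 was at 38.1, 37.9 and 35.6 FPKM and SMARCA2 at 1.83, 2.37 and 1.47 FPKM. The breast cancer genes BRCA1 and BRCA2 and their partner PALB2 were at 7.33 ± 0.50 FPKM, 1.96 ± 0.230 FPKM and 5.67 ± 0.441 FPKM.

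The drivers below 1 CPM were all close to 0. TGFBR2, the ligand-binding receptor of TGF-beta, had 4, 3 and 9 counts, although its partner TGFBR1 was at 5.14, 5.30 and 5.68 FPKM. KDM6A, a histone demethylase gene of chromosome X, had 1, 9 and 2 counts. GATA6 and CDKN2A had 9 and 2 counts in all, and RNF43, which removes Wnt receptors, and DCLK1, a tuft cell kinase, had none. The lowest driver past 1 CPM, the activin receptor ACVR2A, was at 0.916, 0.833 and 0.879 FPKM, and the highest below it, TGFBR2, was at 0.0418, 0.0275 and 0.0666 FPKM.

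**Figure D3:**
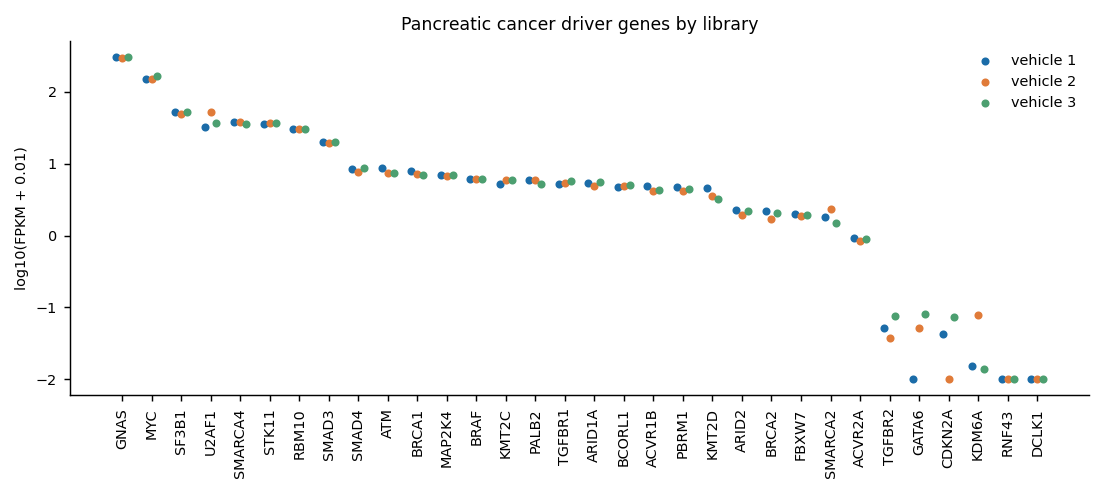
FPKM of 32 of the 34 pancreatic cancer driver genes in each vehicle library, on a log10 scale with 0.01 added, in order of mean FPKM. The first 26 genes lie between the level of GNAS and that of ACVR2A with libraries close together, and TGFBR2, GATA6, CDKN2A, KDM6A, RNF43 and DCLK1 lie near or at the floor.

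Every gene of the RAS pathway list was expressed, 30 of 30, beside 59.1% of all protein-coding genes. The MAP kinase kinase MAP2K2 was far above the rest at 545, 559.9 and 554 FPKM, while its paralog MAP2K1 was at 11.8, 12.5 and 12.6 FPKM. The adaptors SHC1 and GRB2 were at 108 ± 1.77 FPKM and 39.7 ± 1.26 FPKM, and the phosphatase PTPN11 at 44.8 ± 1.38 FPKM. Of the RAS genes, RRAS was at 42.8 ± 4.52 FPKM, RRAS2 at 32.3 ± 2.75 FPKM, NRAS at 25.4 ± 0.484 FPKM, HRAS at 23.9 ± 5.80 FPKM and MRAS at 4.94 ± 0.415 FPKM. HRAS spread the most of these, with 18.9, 30.2 and 22.5 FPKM, and its libraries overlapped those of NRAS. The kinase ARAF was at 27.1, 31.1 and 30.8 FPKM and its paralog BRAF at 6.04, 6.13 and 6.10 FPKM, an order held in every library. The kinase MAPK3 was at 47.4 ± 4.50 FPKM. NF1, which switches RAS off, was at 3.26 ± 0.109 FPKM.

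Receptors for growth factors were expressed in 21 of 30 cases (70%), beside 59.1% of all protein-coding genes, and their median was 2.67 FPKM. The ephrin receptors EPHA2 and EPHB4 were at 40.5 ± 1.08 FPKM and 35.2 ± 0.508 FPKM. ERBB2 was at 33.5, 32.6 and 31.9 FPKM and EGFR at 33.1, 31.1 and 31.3 FPKM. Their ranges overlapped, although ERBB2 was the higher in each library. ERBB3 was lower at 2.51 ± 0.247 FPKM, and ERBB4 had no count. The hepatocyte growth factor receptor MET was at 6.60 ± 0.607 FPKM and the insulin-like growth factor receptor IGF1R at 3.81 ± 0.0778 FPKM. All 4 FGF receptors of the list were expressed, from 8.59 ± 0.649 FPKM for FGFR4 to 1.73 ± 0.459 FPKM for FGFR2. The neurotensin receptor NTSR1 was at 11, 11 and 10.4 FPKM. KIT, ALK and NTRK2 had no count, and the platelet-derived growth factor receptors PDGFRA and PDGFRB had 7 and 18 counts over the 3 libraries.

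Few mucin genes had transcripts at 1 CPM or more. Of 18 mucin genes 4 were expressed (22.2%), beside 59.1% of all protein-coding genes. The sialomucin CD164 was the highest at 80.1, 77.2 and 79.7 FPKM. The gel-forming MUC5AC and the membrane mucins MUC13, MUC16 and MUC17 had no count, and MUC4 had 0, 0 and 1 counts. MUC12 reached 0.659, 1.58 and 2.02 CPM and was below 1 CPM in the first library.

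Surface and enzyme markers used for tumour-initiating cells divided sharply. The hyaluronan receptor CD44 was at 431, 434 and 420.3 FPKM. The retinal dehydrogenases ALDH1A1 and ALDH1A3 were at 305, 305 and 304 FPKM and 71.8, 69.1 and 71.1 FPKM, and the adhesion molecule L1CAM at 38.4 ± 1.22 FPKM. CD24 was at 1.28, 1.22 and 1.47 FPKM, PROM1 (CD133), NANOG and SOX2 had no count, and CXCR4 had 0, 0 and 1 counts. In all, 10 of 20 members were expressed (50%), beside 59.1% of all protein-coding genes.

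Of 32 genes of Wnt, Notch and Hedgehog signalling 23 were expressed (71.9%), beside 59.1% of all protein-coding genes, while their median of 1.39 FPKM was below the 1.73 FPKM of the latter. The Notch ligand JAG2 was at 21.2, 22.4 and 21.9 FPKM and its paralog JAG1 at 2.78, 2.26 and 1.96 FPKM, apart in every library. Of the receptors, NOTCH2 was at 13.9 ± 0.647 FPKM, NOTCH3 at 9.55 ± 0.689 FPKM and NOTCH1 at 3.97 ± 0.221 FPKM, while the Notch target HES1 was at 2.52 ± 0.433 FPKM and HEY1 had no count. The Hedgehog ligand SHH was at 13.7, 13.2 and 13.4 FPKM, and the signal transducer SMO at 13, 14.4 and 14.5 FPKM. The Hedgehog target genes PTCH1 and GLI1 were at 1.29 ± 0.162 FPKM and 0.347 ± 0.0579 FPKM. The Wnt coreceptor LRP5 was at 14.5 ± 0.297 FPKM, the Wnt target AXIN2 at 0.280 ± 0.0180 FPKM, and LEF1 had 9, 6 and 12 counts.

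Cancer-testis genes, silent in most adult tissues outside the germ line, were expressed in 3 of 26 cases (11.5%), and 18 had no count. The expressed share of all protein-coding genes was 59.1%. IGF2BP3, an RNA-binding protein of fetal tissue, was at 66.8, 64.4 and 65.5 FPKM. PRAME was at 4.63, 6.78 and 7.09 FPKM, and TEX15 at 0.159 ± 0.0594 FPKM. The MAGEA genes measured had at most 1 count in any library, and reads of their near-identical copies could be divided between them.

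CDKN2A, which encodes the cell cycle inhibitor p16, had 1, 0 and 1 counts. Its neighbours were at or near 0 too. The table held 80 genes within 2 Mb of CDKN2A (chr9:21967752-21995301, GRCh38), of which 70 had no count, beside 54.1% of all genes. Among the 25 protein-coding genes of that window 19 had no count, beside 23.9% of all protein-coding genes. All 25 together held 11 counts in 3 libraries. The metabolic enzyme gene MTAP, next to CDKN2A, had 0, 0 and 2 counts, CDKN2B, a second cell cycle inhibitor, had none, and FOCAD had 1, 1 and 0 counts. KLHL9 had 0, 2 and 1 counts. The 16 type I interferon genes of the window had no count, and such genes are usually silent in unstimulated cells. The 1 gene that passed 1 CPM was the processed pseudogene CLIC4P1 with 18, 18 and 18 counts, which resembles CLIC4 elsewhere in the genome.

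On both sides the counts returned. RPS6, a ribosomal protein gene on one side, was at 1098 CPM, and CAAP1 on the other side was at 23.4 CPM. Between them, 29 protein-coding genes in a row from ACER2 to TUSC1, over 6.27 Mb, stayed below 1 CPM and held 43 counts, 32 of them in ACER2. Among 3616 such runs in the genome this one, looked at after values were seen, ranked 11th by number of genes and 8th by length. The run with the most genes was one of 72 from OR4B1 to APLNR on chromosome 11 without a count. DNA was not measured here, so the part of copy number in these values was not tested.

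The promoters of CDKN2A are shown because the gene has 2 starts, each read into a different protein. The first window, at chr9:21995275-21995574 on the minus strand, lies at the start nearer to CDKN2B. The second lies at chr9:21974808-21975107 on the minus strand.
CDKN2A first start: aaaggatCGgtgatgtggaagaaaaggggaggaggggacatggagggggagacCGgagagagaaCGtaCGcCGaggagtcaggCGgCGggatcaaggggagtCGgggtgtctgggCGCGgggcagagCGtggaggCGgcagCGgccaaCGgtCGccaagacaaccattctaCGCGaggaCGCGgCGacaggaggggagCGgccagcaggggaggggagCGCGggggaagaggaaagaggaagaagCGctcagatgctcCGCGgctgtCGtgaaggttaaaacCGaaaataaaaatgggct
CDKN2A second start: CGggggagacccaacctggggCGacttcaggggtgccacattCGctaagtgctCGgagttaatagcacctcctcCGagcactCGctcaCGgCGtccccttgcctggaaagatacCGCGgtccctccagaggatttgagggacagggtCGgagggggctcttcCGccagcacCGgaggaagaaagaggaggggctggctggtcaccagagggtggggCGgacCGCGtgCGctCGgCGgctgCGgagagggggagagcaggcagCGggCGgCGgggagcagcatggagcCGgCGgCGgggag
With CG pairs in capitals, the first holds 28 CG pairs, 1.13 times the number given by its composition, and the second holds 26 CG pairs, 0.764 times. Both are past the limit of 0.6, like the EEF1A1 and FTL windows, and neither holds TATAAA.

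**Figure D4:**
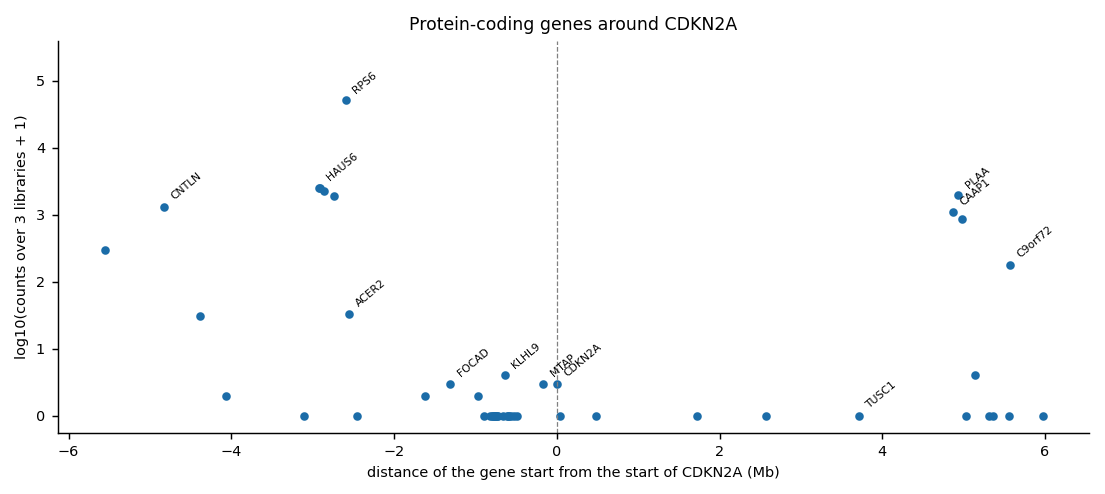
Counts summed over the 3 vehicle libraries, on a log10 scale with 1 added, for protein-coding genes within 6 Mb of CDKN2A, against distance from its start. RPS6 on one side has 51165 counts, CAAP1 and PLAA on the other have 1088 and 1953, and the genes between ACER2 and CAAP1 have 3 or fewer.

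Antigen presentation genes were expressed in 9 of 21 cases (42.9%), beside 59.1% of all protein-coding genes. Beta-2-microglobulin B2M, the light chain of class I molecules, was at 223, 189 and 203 FPKM. The heavy chain genes shown were lower, HLA-B at 23.4, 12.4 and 11.2 FPKM, while HLA-C had 0, 0 and 6 counts. The peptide transporter subunits TAP1 and TAP2 were at 1.00 ± 0.0248 FPKM and 0.210 ± 0.0343 FPKM. Class II genes such as HLA-DPA1 had no count, and HLA-DRA had 1, 0 and 0 counts. PD-L1, encoded by CD274, had 4, 5 and 6 counts. All the heavy chain and transporter genes lie in the major histocompatibility complex.

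Genes of complexes with fixed composition, looked at after values were seen, showed which genes had low counts for their kind. The 77 ribosomal protein genes looked at had a median of 655 FPKM. RPS18, inside the major histocompatibility complex on chromosome 6, was at 19.5, 3.48 and 35.8 FPKM, and RPS9, inside the leukocyte receptor complex on chromosome 19, was at 9.81, 9.40 and 9.12 FPKM. The next lowest, RPL14, was at 96.8, 94.3 and 118 FPKM, above every library of both. In the 33 proteasome genes the median was 83 FPKM, and PSMB3, a subunit gene on chromosome 17, was at 26, 0.831 and 75.4 FPKM from 312, 7 and 1208 counts. In the second library it stood far below every other proteasome gene, and in the others within their range.

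The segments that hold RPS18 and RPS9 were looked at as well. Between HLA-F and DAXX (chr6:29722775-33323016), 61 of 150 protein-coding genes were expressed (40.7%). The share was as low beside the segment, within 2 Mb on either side, with 34 of 87 (39.1%), and was 54.6% over the rest of chromosome 6. Genes with any count had a median of 0.419 FPKM inside, 1.24 FPKM in the flanks and 3.53 FPKM in the rest of the chromosome. In the leukocyte receptor complex from TFPT to NCR1 (chr19:54107020-54916140), 7 of 33 were expressed (21.2%), beside 66 of 118 (55.9%) in its flanks and 63.3% of the rest of chromosome 19. The medians there were 0.387 FPKM inside, 1.78 FPKM in the flanks and 3.68 FPKM in the rest. The sources used here name neither the reference sequences nor the treatment of reads with several matches, and their part in the low counts was not tested. The HLA and TAP values and that of the collagen receptor DDR1, 0.676 ± 0.0145 FPKM, stand beside this limit.

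**Figure D5:**
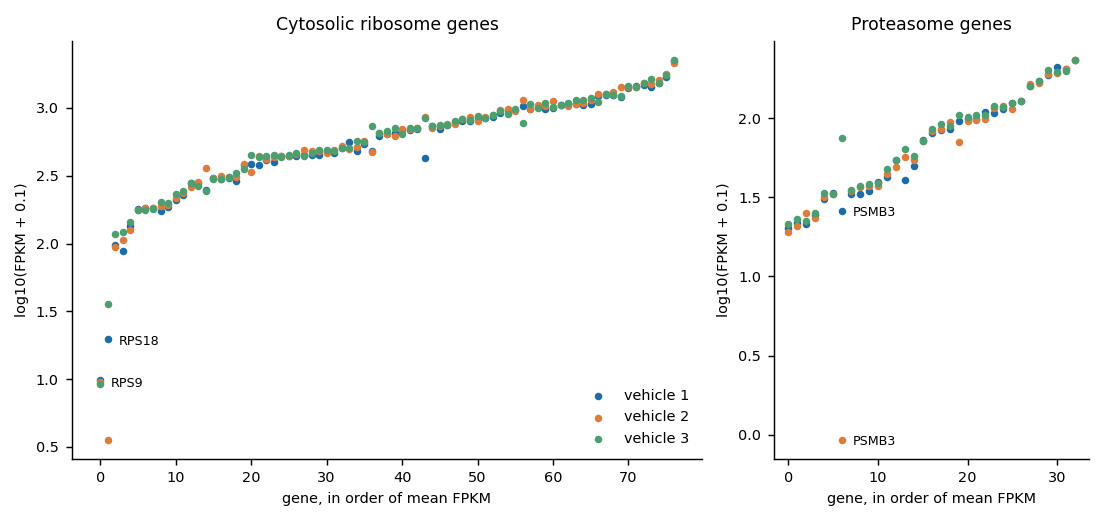
FPKM of 77 ribosomal protein genes (left) and 33 proteasome genes (right) in each vehicle library, on log10 scales with 0.1 added, in order of mean FPKM. RPS9 and RPS18 lie below the rest in every library, and PSMB3 lies below the other subunits in the second library and within their range in the others.

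Most genes varied little between libraries. Among 9791 genes with a mean of 10 CPM or more the median coefficient of variation was 4.42%, with quartiles of 2.63% and 7.15%, and 87.9% of the genes were at 10% or less. In 84 genes it passed 30%, and 70.2% of these overlap another gene on the same strand, against 8.86% of the other genes. The search for overlaps was set to a minimum of 30 counts. The largest was NBPF19, a member of a repeated family on chromosome 1, with 818, 0 and 0 counts. Its overlapping partner ENSG00000286185 had 0, 735 and 995 counts, and the pair summed to 818, 735 and 995. ENSG00000268173, which spans PIK3R2 and IFI30, had 476, 0 and 15 counts. RPS15A overlaps ENSG00000260342, which had 419, 0 and 381 counts beside 4133, 4614 and 5730 for RPS15A. Other pairs did not sum to level counts, such as ENSG00000260669 and MDP1 with 53, 356 and 223 in all. TUBA1B-AS1, named as antisense to a tubulin gene, had no overlap on its own strand in that search and had 151, 770 and 225 counts. The sources used here do not say how shared reads were counted, and the part of that in this spread was not tested.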

How the data were processed

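RNA was taken from PANC-1 cells with an RNeasy kit and libraries were made with a SMARTER mRNA-Seq kit, per the labels' protocols. Counts were deposited as whole numbers for each Ensembl gene, and the headings call them counts. The deposited FPKM values, per the file headers, are the authors' length-scaled levels. GRCh38 and the mouse build mm10 are both named in the submitters' processing notes, without the part that mm10 had in these human counts. The sources used here do not name the aligner, the counter, the strand setting or the annotation. Overlapping genes and close paralogs are uncertain for that reason. The positions overlapped GENCODE 29 (GRCh38) for 58165 of 58228 shared Ensembl IDs (99.9%).

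The 3 control libraries were taken by title, and 6 per-sample columns of the treated libraries were not used. CPM were computed from the library totals, with Python 3.11.15. A gene was expressed at a mean of 1 CPM or more. The common biological coefficient of variation and TMM factors came from edgeR 4.0.16, and size factors from DESeq2 1.42.0, in R 4.3.3, and the estimate was tested on simulated data. With 1 group there was no test of any difference, so no p-value is given. Without molecular identifiers, reads do not stand for separate molecules, so floors cover counting error only.

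Gene lists, 21 in number, held 428 symbols, of which 427 were in the table. The libraries, lists and rules were chosen with earlier results of these data known. Genes named are the 20 highest by mean CPM and by mean FPKM, members of a list, genes within 2 Mb of CDKN2A, the 10 highest long non-coding RNA genes and the 10 with the largest coefficient of variation among those at 10 CPM or more. Not all are named, some are not reported here, and a gene outside the rule is described as looked at after values were seen. Promoters are from RefSeq on GRCh38.p14, matched by gene ID or symbol, for 15563 of 20073 protein-coding genes (77.5%). Alternatives were other levels, FPKM in place of CPM, other scaling factors, removal of mitochondrial genes, another window, and each library left out in turn. Figures were drawn with matplotlib 3.10.9.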

Additional observations from a re-analysis of the deposited data

How the results depend on the processing

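Of 542 alternative values for 89 results, 262 values of counts, shares and spreads and all 255 values of 51 single genes stayed within their limits, and 25 moved. The limit was a fixed fold difference for counts and spreads, and the SD over the 3 libraries for shares and single genes. Pearson's r had no limit and was set down as unchanged. The fold difference was wide: 1236 expressed long non-coding RNA genes at 1 FPKM, against 1665 at 1 CPM, stayed within it. At a level of 5 CPM the expressed long non-coding RNA genes numbered 539, acinar genes 0, islet genes 3, leukocyte genes 1, endothelial genes 1 and mucin genes 2. At 0.5 CPM 1 classical gene passed. At 1 FPKM 0 acinar genes and 1 endothelial gene passed, and 0 acinar genes reached 1 CPM in every library. In summed FPKM, which divides by length, protein-coding genes held 93.5%, long non-coding RNA genes 1.95%, processed pseudogenes 1.92%, mitochondrial genes 10.8%, ribosomal protein genes 12.4%, and the 10, 100 and 1000 highest genes 11.5%, 34.7% and 65.1%. Without mitochondrial genes, which removes them from the total, the shares were 97.3% for protein-coding genes, 1.76% for long non-coding RNA genes, 0.678% for processed pseudogenes, 6.23% for ribosomal protein genes, and 6.56%, 19.0% and 50.1% for the highest genes. Leaving out each library in turn moved no count or spread past its limit. For shares and single genes, leaving out 1 of 3 libraries cannot pass the SD, so that check could not fail. With 1 library left out, the median coefficient of variation was 3.54% to 3.61%.

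No paired analysis was possible because the 3 libraries form 1 group. Depth limits low genes: no counts in any library allows a level of up to 0.0645 CPM, and counts of a few reads per library do not rank genes. The libraries are 1 cell line at 1 time point after vehicle, so nothing here separates the solvent from culture alone. Genes inside the major histocompatibility and leukocyte receptor complexes, and genes that overlap others, are uncertain.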

Other observations

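The share of protein-coding genes that PANC-1 expressed differed between chromosomes, compared over 1 to 22 and X. It was highest on chromosome 22, with 308 of 447 genes (68.9%), and on chromosome 16, with 573 of 857 (66.9%), beside 59.1% over all protein-coding genes. It was lowest on chromosome X, with 367 of 859 (42.7%), where 345 genes (40.2%) had no count, and on chromosome 21, with 108 of 220 (49.1%). Chromosomes 8, 11 and 6 were at 52.8%, 52.2% and 52.6%. These are descriptions of 1 line with no other line beside it.

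Of 3616 runs of protein-coding genes below 1 CPM, 4 long ones were chosen for description after values were seen. The 51 protein-coding genes from NLRP3 to LYPD8 on chromosome 1 and the 32 from TMPRSS11E to JCHAIN on chromosome 4 had no count. The 50 genes from RPTN to S100A7 on chromosome 1, in the region of epidermal differentiation, held 12 counts in all, although S100A6, the next gene, was at 754 CPM. On chromosome 17, 49 genes from KRT12 to KRT13 held 14 counts between KRT10 at 12.9 CPM and KRT15 at 25 CPM.

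The authors' FPKM and counts differed for some genes, and the examples here were picked after values were seen. ACTB was at 7772, 8293 and 8066 CPM but 4086, 3859 and 4528 FPKM, so the second library was highest on one scale and lowest on the other. RPS9 was at 10.1, 15.8 and 9.40 CPM but 9.81, 9.40 and 9.12 FPKM. Orders and ranges over libraries in FPKM can thus differ from those of the counts. In 4, 2 and 7 genes of the 3 libraries a positive count stood beside an FPKM of 0, and in no gene did the reverse occur.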
